A study of Mus musculus with 6 samples.

Results

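The genes described here are 31 genes of the distal nephron and collecting duct, the parts of the kidney tubule downstream of the loop of Henle's thin limb. They were found by symbol in the array's annotation, and 56 of the 45101 probe sets on the array carry their symbols. They were grouped as 7 genes of the thick ascending limb, 10 of the distal convoluted and connecting tubule, 11 of principal cells of the collecting duct and 3 of intercalated cells. RNA came from glomeruli, the filtering units of the kidney, isolated with magnetic beads from 6 female mice aged 6 weeks, with 1 Affymetrix array per mouse. In 3 mice, called Vhl-deleted below, a podocin-Cre transgene, active in podocytes, had excised a floxed von Hippel-Lindau gene (Vhl), and 3 littermates are labelled wildtype controls. The breeders carried Pod-Cre and were homozygous for the floxed locus. Such parents would pass floxed alleles to every pup, but the sources used here do not state the littermates' genotype. The Vhl-deleted mice had been chosen for urinary albumin no higher than the littermates' average at 4 weeks. Glomerular cells other than podocytes keep Vhl in this model.

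The thick ascending limb takes up salt without water through the cotransporter NKCC2 (Slc12a1), and the distal convoluted tubule takes up more through the thiazide-sensitive cotransporter NCC (Slc12a3). In the collecting duct, principal cells absorb sodium through the epithelial sodium channel and water through aquaporins under the control of aldosterone and vasopressin, and intercalated cells secrete acid or base with a vacuolar proton pump. These genes are textbook markers of tubule epithelium and not of the glomerular tuft. A few have wider expression: Slc8a1 encodes the sodium-calcium exchanger of many cell types, and Fxyd2 is also expressed in the proximal tubule.

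Promoter sequence was available for 22 of the 31 genes, as 25 windows of 300 bases (250 before to 50 after the start of transcription) in a RefSeq table of build GRCm38.p6. Since Vhl loss stabilises the hypoxia-inducible factors (HIF), the windows were searched on both strands for the HIF core motif, ACGTG or GCGTG, and for the letters GTTAAT, part of the site of the tubule factor HNF1. Of the 25 windows 9 (36%) held the HIF core, against 43.8% of all 32851 promoters, and 2 (8%) held GTTAAT, against 7.10%. The 4 stretches below, each 100 bases upstream of the start, show where these letters fall in genes whose levels are described later, with every match in capitals.
Umod, chr7:119479413-119479512, minus strand, GTTAAT: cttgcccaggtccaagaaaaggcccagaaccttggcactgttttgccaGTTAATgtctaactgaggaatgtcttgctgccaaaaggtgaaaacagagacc
Slc12a1, chr2:125152500-125152599, plus strand, GCGTG: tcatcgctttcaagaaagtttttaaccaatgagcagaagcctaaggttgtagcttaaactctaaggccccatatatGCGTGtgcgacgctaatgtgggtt
Kcnj1, chr9:32393767-32393866, plus strand, GCGTG: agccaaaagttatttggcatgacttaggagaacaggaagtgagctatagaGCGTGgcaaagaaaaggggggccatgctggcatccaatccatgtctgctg
Aqp2, chr15:99578949-99579048, plus strand, ACGTG on both strands, overlapping: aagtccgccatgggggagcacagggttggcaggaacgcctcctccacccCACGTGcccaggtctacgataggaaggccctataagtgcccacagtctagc
A match describes letters in these windows and shows no binding.

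Values are MAS5 signals on a linear scale, scaled by array to the same trimmed mean, and median signals lay between 94.6 and 107.5. Changes are log2 differences of signal + 28, Vhl-deleted minus wild-type, each with its standard error (SE), from 3 arrays a group (n = 3), a number that limits the precision of every value. The arrays of a group are given in the order of replicates 1 to 3. Vhl had signals of 809, 665 and 707 on wild-type replicates 1 to 3 and of 611, 619 and 606 on Vhl-deleted replicates 1 to 3. The HIF target Egln3 was between 144 and 171 on the wild-type and between 3678 and 5098 on the Vhl-deleted arrays, so each array matched its label. Podocyte markers, which define the labelled tissue, had list means of 12.25 to 12.97 (log2) over the 6 arrays. Of all 11159 genes tested, 8 rose and 1 fell (limma, Benjamini-Hochberg threshold 0.05), which is 0.0807% in all, 0.0717% upward and 0.00896% downward.

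None of the 30 distal nephron and collecting duct genes tested passed the threshold for a rise or fall between Vhl-deleted and wild-type glomeruli. In 29 of the 30 genes tested the pooled SD between arrays of a group was larger than the change, as in 72.0% of all genes. Of the 31 genes, 30 passed the filter on low signals, and Elf5, a transcription factor gene of principal cells, did not. With limma, 0 of the 30 passed the threshold, 0 had an unadjusted p under 0.05, and the lowest adjusted p was 0.944. The change was positive in 27 of 30, with a median of 0.25, against 50.9% positive and a median of 0.00 over all genes tested. All 30 of the 95% intervals included 0, and the median SE was 0.34, against 0.16 over all genes. Replicate 3 of each group stood apart. On wild-type replicate 3, 25 of the 30 genes had their lowest value, against 27.5% of all genes, and on Vhl-deleted replicate 3, 25 had their highest, against 25.9%. Both held for 21 of the 30, against 14.9% of all genes. Without wild-type replicate 3 the change was positive in 7 of 30 (47.4% of all genes), with a median of -0.09, and without Vhl-deleted replicate 3 it was positive in 15 of 30 (49.3%), with a median of 0.00. None of the 30 passed the threshold in either fit (limma, lowest adjusted p of 0.994 and 0.998), against 0.108% and 0.0538% of all genes. In whole glomerular RNA, fewer cells of a type and less RNA per cell cannot be told apart.

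**Figure D1:**
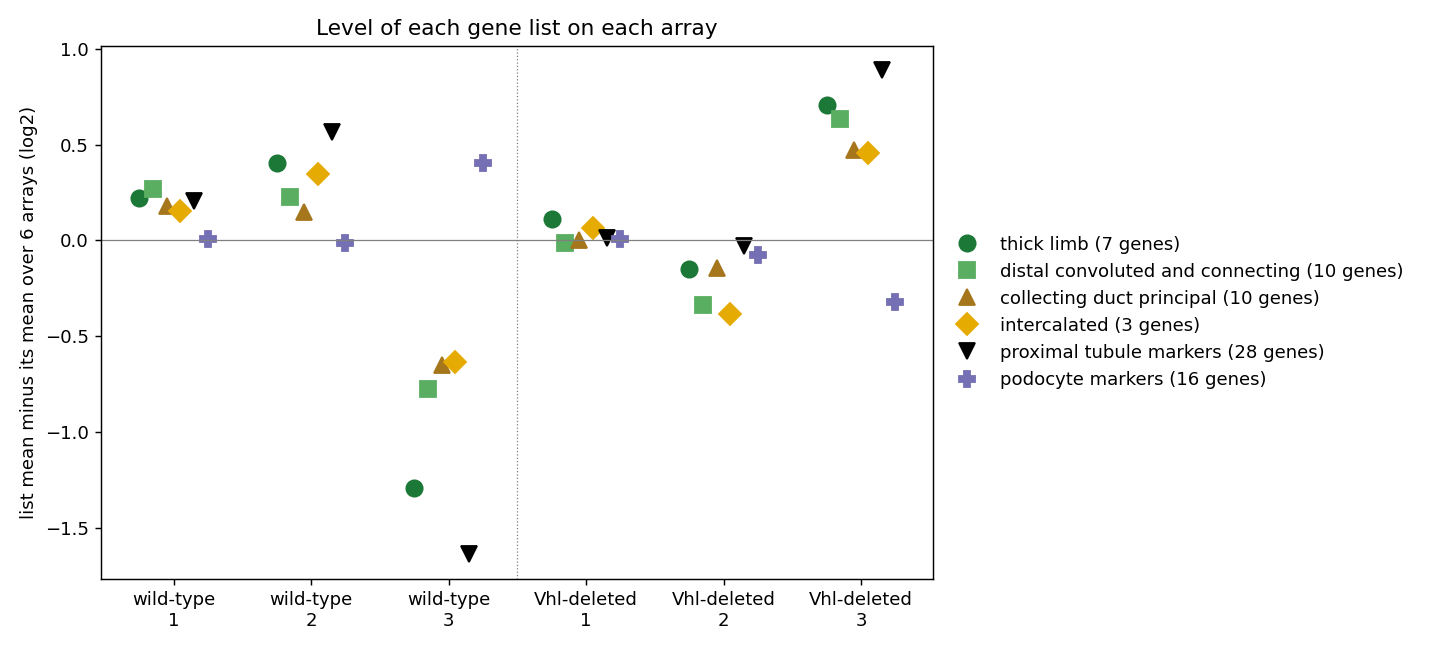
Mean log2 level of the 4 segment lists, the proximal tubule markers and the podocyte markers on each of the 6 arrays, each minus its own mean over the arrays; each symbol is 1 list on 1 array. Every tubule list is lowest on wild-type replicate 3 and highest on Vhl-deleted replicate 3, and the podocyte list runs the other way, from 12.97 to 12.25.

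Thick limb genes had the widest range of list means over the arrays among the 4 segments, 2.00 (log2) against 1.41, 1.12 and 1.09 for the distal convoluted, principal cell and intercalated lists. All 7 were lowest on wild-type replicate 3 and highest on Vhl-deleted replicate 3. Umod encodes uromodulin, the most abundant protein of normal urine, which thick limb cells secrete. Its signal was 26921, 27167 and 11354 on wild-type replicates 1 to 3 and 25263, 23590 and 30739 on Vhl-deleted replicates 1 to 3. The groups overlapped: wild-type replicates 1 and 2 lay above Vhl-deleted replicates 1 and 2, and replicate 3 of each group stood apart. The change was 0.38 (SE 0.34, 95% interval -0.41 to 1.17, limma adjusted p = 0.944), and without wild-type replicate 3 it was -0.04 (-0.34 to 0.27). The second Umod probe set gave 0.58.

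Slc12a1, the NKCC2 gene, was at 9201, 10238 and 2733 on the wild-type and 9024, 7000 and 13303 on the Vhl-deleted arrays. Wild-type replicate 3 was at 28.1% of the mean of the other wild-type arrays, and the other wild-type arrays lay inside the range of the Vhl-deleted ones. The change was 0.57 (SE 0.51, limma adjusted p = 0.944) and turned to -0.04 (-0.62 to 0.54) without that array. Bsnd encodes barttin, the subunit that the basolateral chloride channels need. It had signals of 130, 186 and 6.04 on the wild-type and 134, 152 and 268 on the Vhl-deleted arrays, and the wild-type replicate 3 value lies far below the added 28, near the floor of the array. Its change of 0.97 (SE 0.67, 95% interval -0.61 to 2.55, limma adjusted p = 0.944) was the largest of all 30 genes and was 0.16 without wild-type replicate 3. The other 4 thick limb genes were Kcnj1, the potassium channel ROMK that recycles potassium for NKCC2, Egf, the epidermal growth factor precursor, Ppp1r1a, a protein phosphatase 1 inhibitor, and Cldn16, a claudin of the paracellular magnesium pathway. On wild-type replicate 3 they stood at 33.6%, 45.9%, 25.8% and 36.6% of the mean of the other wild-type arrays. Their changes lay between 0.19 (Cldn16) and 0.35 (Ppp1r1a), and without that array between -0.26 (Ppp1r1a) and -0.04 (Egf).

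**Figure D2:**
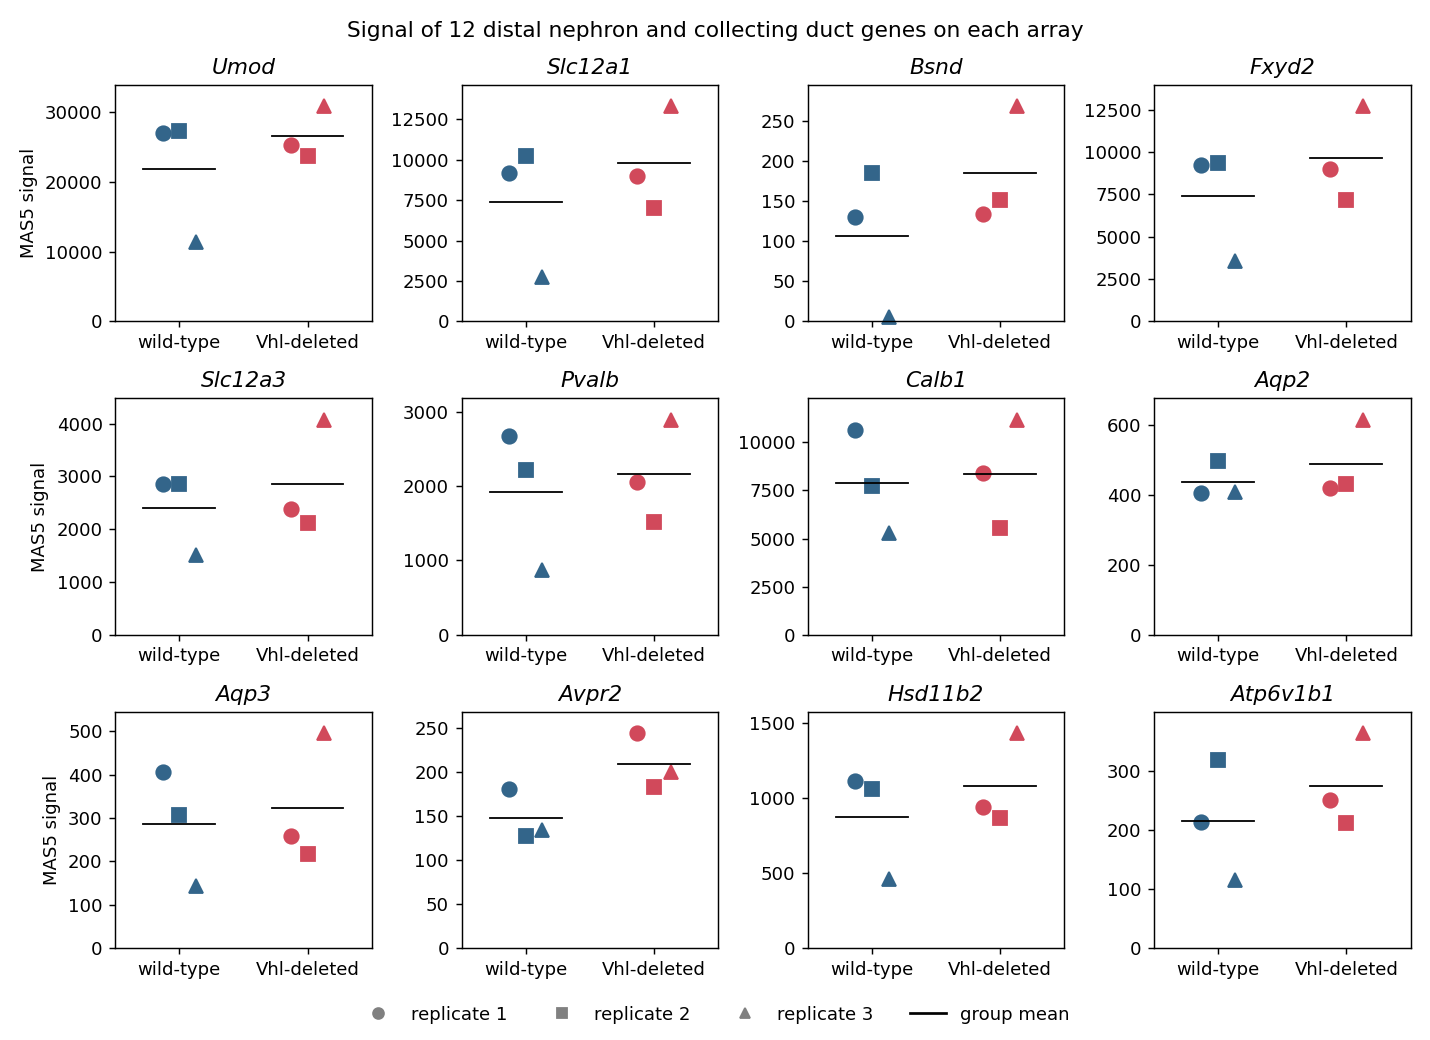
MAS5 signal (linear axis from 0) of 12 of the genes on each array; circles, squares and triangles are replicates 1, 2 and 3, and the bar is the group mean (n = 3). In 10 panels the wild-type triangle is the lowest point of all 6 and in 11 panels the Vhl-deleted triangle is the highest; Aqp2 and Avpr2 lack the low triangle, and Avpr2 is the one panel whose groups do not overlap.

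Distal convoluted and connecting tubule genes had their lowest value on wild-type replicate 3 in 8 of 10 cases and their highest on Vhl-deleted replicate 3 in 9. Slc12a3, the NCC gene, was at 2852, 2853 and 1508 on the wild-type and 2376, 2117 and 4072 on the Vhl-deleted arrays. Its change was 0.24 (SE 0.33, limma adjusted p = 0.944). Pvalb, the calcium-binding protein parvalbumin of the early distal convoluted tubule, was at 2674, 2222 and 874 on the wild-type and 2060, 1520 and 2891 on the Vhl-deleted arrays, a change of 0.26 (SE 0.43) that was -0.22 without wild-type replicate 3. In both genes wild-type replicates 1 and 2 lay above Vhl-deleted replicates 1 and 2. Calb1 encodes calbindin, which carries calcium across cells of the late distal and connecting tubule, and its signals were 10613, 7726 and 5277 on the wild-type and 8388, 5558 and 11170 on the Vhl-deleted arrays. The change was 0.09 (SE 0.32) and the other 2 Calb1 probe sets above the filter gave 0.30 and 0.04.

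Fxyd2, the gamma subunit that modulates the sodium pump, was at 9229, 9373 and 3541 on the wild-type and 9026, 7163 and 12689 on the Vhl-deleted arrays, a change of 0.47 (SE 0.40) that was 0.01 without wild-type replicate 3. Its other 3 probe sets gave 0.20 to 0.52. Slc8a1, the sodium-calcium exchanger, was more even than the rest of the segment, at 1159, 1175 and 960 on the wild-type and 970, 843 and 1456 on the Vhl-deleted arrays, a change of -0.04 (SE 0.21). Its lowest value was on Vhl-deleted replicate 2, and its highest was on Vhl-deleted replicate 3, as in most of the genes. Tfap2b, a transcription factor gene of the distal tubule, was at 444, 498 and 171 on the wild-type and 312, 169 and 774 on the Vhl-deleted arrays. This is the widest spread within the Vhl-deleted group, where replicate 3 was at 321% of the mean of the other arrays. Its change was 0.04 (SE 0.57), and -0.02 with median scaling, and its 95% interval, -1.29 to 1.37, covers a rise or fall of more than 2-fold.

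Of the other distal convoluted and connecting tubule genes, Trpm6, the magnesium channel, and Kcnj10, a basolateral potassium channel, stood on wild-type replicate 3 at 73.4% and 54.7% of the other wild-type arrays. Klk1, the kallikrein that connecting tubule cells secrete, stood at 49.1%. Its change was 0.26, and further Klk1 probe sets gave 0.23 and 0.32. One more Klk1 probe set ran against these, with signals of 1567, 1862 and 3646 on the wild-type and 1382, 1276 and 1478 on the Vhl-deleted arrays. Wild-type replicate 3 was its highest array, and all its Vhl-deleted arrays lay below the wild-type ones, a change of -0.67 (SE 0.28). It does not stand for the gene and is not in the counts given here. Klk1 belongs to a large family of near-identical kallikrein genes, and the sources used here do not say which transcripts that probe set detects. Wnk4, the kinase that sets NCC activity, is named because of its values: it was at 851, 979 and 223 on the wild-type and 481, 538 and 852 on the Vhl-deleted arrays. Wild-type replicate 3 was at 24.3% of the others, the lowest share in the segment. The change was 0.06 (95% interval -1.17 to 1.30) with all arrays and -0.57 (-1.13 to -0.01) without wild-type replicate 3, where its limma adjusted p was 0.994.

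**Figure D3:**
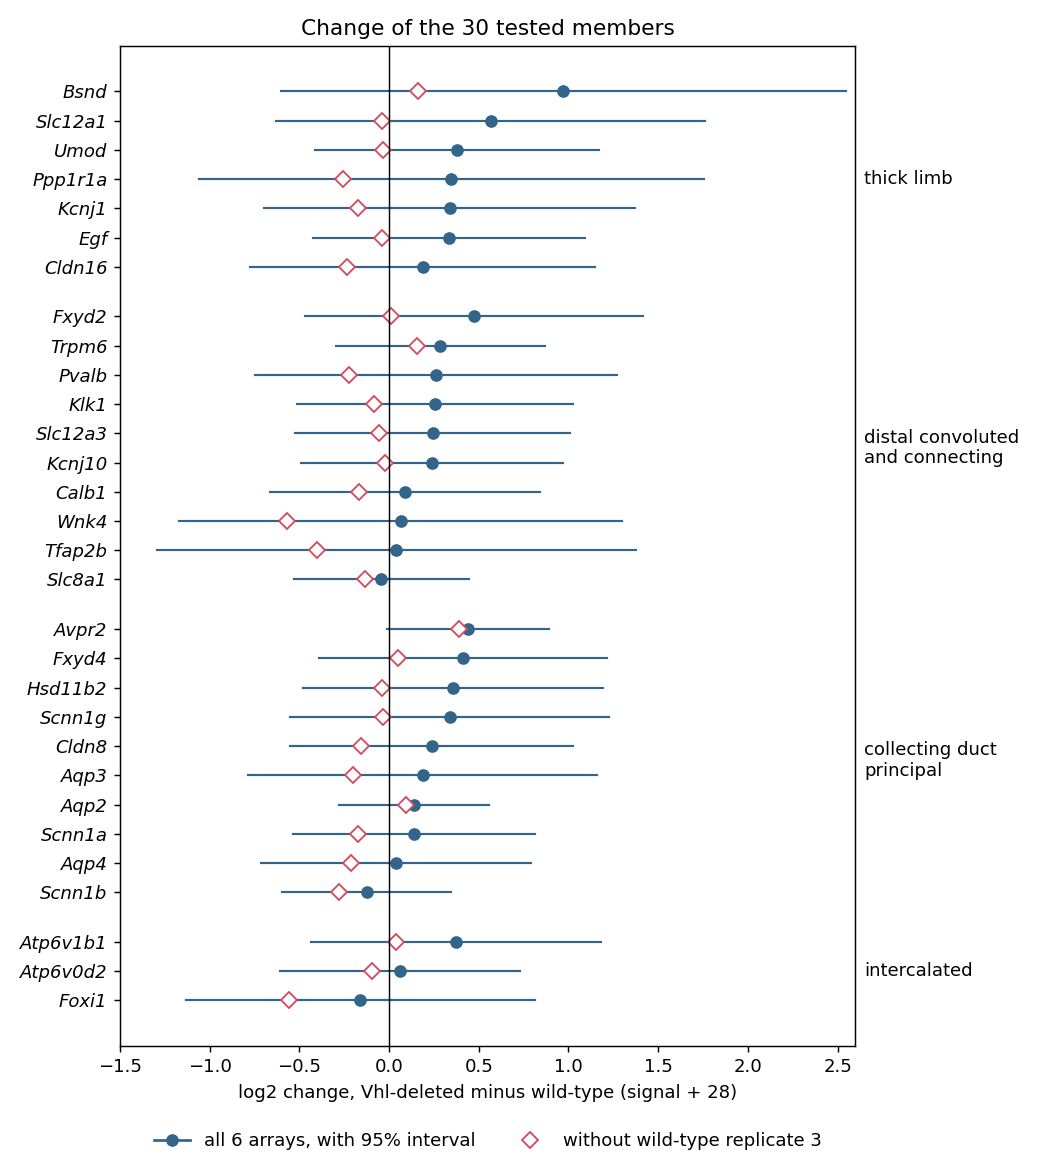
Log2 change (Vhl-deleted minus wild-type, signal + 28) of the 30 tested genes by segment; filled points with bars are limma estimates with 95% intervals from all 6 arrays, and open diamonds are estimates without wild-type replicate 3. All 30 bars cross 0, 27 filled points lie to its right, and 7 diamonds do.

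Of the 10 principal cell genes tested, 8, among them the water channel genes Aqp3 and Aqp4, had their lowest value on wild-type replicate 3. Aqp2, nearly tied between wild-type replicates 1 and 3, and Avpr2 did not. Aqp2, the water channel that vasopressin moves to the apical membrane, was at 406, 496 and 408 on the wild-type and 421, 432 and 616 on the Vhl-deleted arrays. Wild-type replicate 3 was at 90.5% of the mean of the others, the highest share among the 30 genes, and the change was 0.14 (SE 0.18, 95% interval -0.28 to 0.56). Avpr2, the vasopressin receptor that acts upstream of Aqp2, was at 181, 127 and 134 on the wild-type and 244, 183 and 200 on the Vhl-deleted arrays. Its Vhl-deleted arrays all lay above the wild-type ones, the only such case among the 30 genes (1 of 30, against 10.7% of all genes in either direction, 5.04% with the Vhl-deleted arrays above and 5.64% with them below), and the nearest arrays, at 181 and 183, almost touched. The change was 0.44 (SE 0.19, 95% interval -0.01 to 0.89, limma adjusted p = 0.944), and it was 0.39 and 0.46 without replicate 3 of the wild-type or of the Vhl-deleted group.

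Aqp3, a water channel of the basolateral membrane of the same cells, had the array order of the thick limb genes, at 407, 307 and 142 on the wild-type and 259, 216 and 496 on the Vhl-deleted arrays, a change of 0.19 (SE 0.41). Its other 2 probe sets above the filter gave 0.28 and 0.36. Aqp4, the other basolateral water channel, was dim, at 120, 179 and 76.1 on the wild-type and 115, 89.7 and 177 on the Vhl-deleted arrays, a change of 0.04 (SE 0.32), and -0.01 with quantile normalization and with median scaling. Hsd11b2 encodes the enzyme that inactivates cortisol and corticosterone and so keeps the mineralocorticoid receptor for aldosterone. Its signals were 1110, 1058 and 459 on the wild-type and 941, 865 and 1432 on the Vhl-deleted arrays, with wild-type replicate 3 again the lowest and a change of 0.36 (SE 0.35).

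The 3 subunits of the epithelial sodium channel did not give one value. Scnn1b, the beta subunit, was at 186, 203 and 134 on the wild-type and 154, 135 and 181 on the Vhl-deleted arrays, a change of -0.12 (SE 0.20, 95% interval -0.60 to 0.35). The alpha subunit gene Scnn1a had a change of 0.14 and the gamma subunit gene Scnn1g one of 0.34, and no test was made of how they differ. On wild-type replicate 3 the alpha, beta and gamma genes were at 49.3%, 68.9% and 35.7% of the other wild-type arrays. Fxyd4, a further regulator of the sodium pump in the collecting duct, was at 493, 523 and 224 on the wild-type and 452, 438 and 737 on the Vhl-deleted arrays, a change of 0.41 (SE 0.34) that was 0.05 without wild-type replicate 3. Cldn8, a claudin of the tight junction there, was at 42.8% on wild-type replicate 3 with a change of 0.24. Elf5 had signals between 2.02 and 38.6 over the 6 arrays and was not tested.

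Intercalated cell genes were 3 in number. Atp6v1b1, the proton pump subunit whose loss causes renal tubular acidosis, was at 213, 318 and 116 on the wild-type and 250, 211 and 364 on the Vhl-deleted arrays, a change of 0.37 (SE 0.34). Foxi1, the transcription factor that specifies intercalated cells, was at 146, 232 and 65.3 on the wild-type and 123, 74.3 and 167 on the Vhl-deleted arrays, a change of -0.16 (SE 0.41), and -0.56 (-1.33 to 0.21) without wild-type replicate 3. The groups of both genes overlapped. Atp6v0d2, another subunit of the pump, had its lowest value on Vhl-deleted replicate 2, at 148, and a change of 0.06.

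Proximal tubule markers, which belong to an upstream segment, varied in the same direction and by more. Over 28 tested markers, wild-type replicate 3 was at a median of 22.3% (15.6% to 40.4%) of the other wild-type arrays, against a median of 43.2% (3.82% to 90.5%) for the 30 distal genes. By segment the median share was 33.6% in the thick limb, 51.0% in the distal convoluted and connecting tubule, 46.7% in principal cells and 43.5% in intercalated cells. On Vhl-deleted replicate 3 the median was 181% of the other Vhl-deleted arrays for proximal markers and 164% for the distal genes. Between the groups, the change was positive in 28 of 28 proximal markers, with a median of 0.57, and in 3 of 16 podocyte markers, with a median of -0.33, and with limma 0 of either list rose or fell. Podocyte markers went the other way on replicate 3 of each group: their list mean on wild-type replicate 3 was 0.41 above the other wild-type arrays (log2), and on Vhl-deleted replicate 3 it was 0.29 below the other Vhl-deleted arrays. The distal gene mean on the same arrays was 1.08 below and 0.68 above. The part of tubule RNA content in the distal values was not tested beyond a fit with each array's mean over the proximal markers as covariate: there the median change of the distal genes was -0.07, 12 of 30 changes were positive (47.9% of all genes) and the lowest limma adjusted p was 0.340, with 0 of 30 past the threshold against 0.323% of all genes. Centring on the proximal list mean lowered the change of every gene by the same amount. The median was then -0.33, against -0.58 over all genes. Of the 30, 1 was positive, against 2.52% of all genes, and 0 passed the threshold, against 0.00896%.

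**Figure D4:**
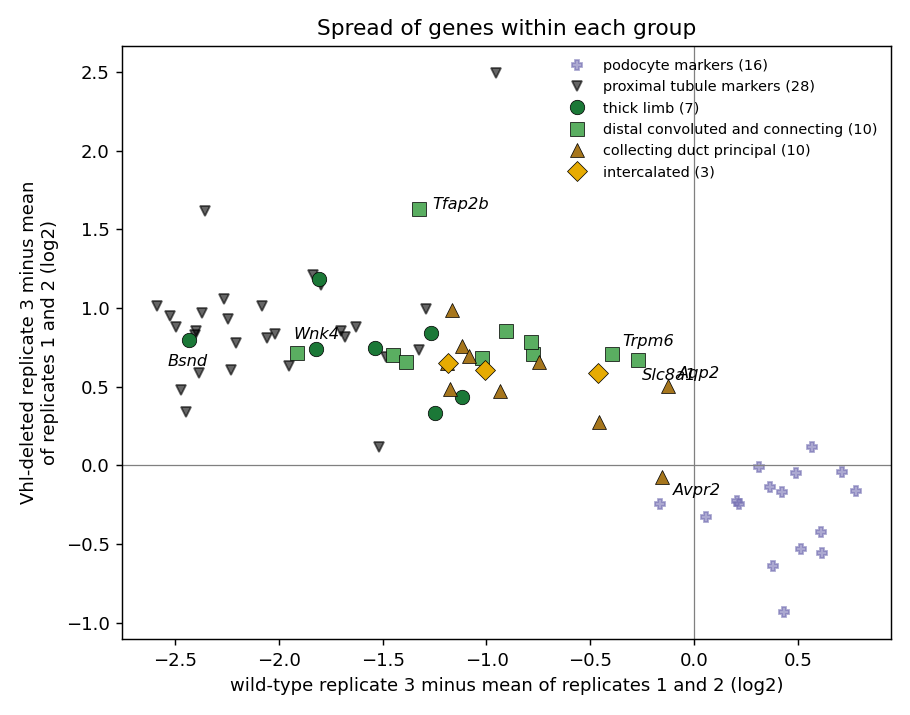
Level of each gene on replicate 3 minus the mean of replicates 1 and 2 (log2, signal + 28), in wild-type (horizontal) and Vhl-deleted mice (vertical); each symbol is 1 gene of the 4 segments, the proximal tubule markers or the podocyte markers. The distal genes overlap the proximal markers, whose median lies farther left (-2.14 against -1.12), with Bsnd (-2.43) the farthest left and Aqp2 and Avpr2 the farthest right of the distal genes.

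A wider list of 60 other genes of the same segments and of aldosterone signalling was described in the same way, and 41 of them were tested. With limma 0 of the 41 rose or fell, the groups did not overlap in 3 (1 higher and 2 lower in Vhl-deleted mice, against 10.7% of all genes), 32 had a positive change, and the median was 0.22, which was -0.09 without wild-type replicate 3. On wild-type replicate 3, 33 of the 41 had their lowest value, but Npnt, Gata3 and Kit stood at 126%, 142% and 142% of the other wild-type arrays. Which cells of the preparation gave the signals of the wider list was not tested, so its median need not describe distal cells alone. Among the 3 of lowest p with a positive change, Stk39, the kinase that WNK kinases use to activate both cotransporters, was at 409, 487 and 405 on the wild-type and 490, 622 and 749 on the Vhl-deleted arrays. The groups did not overlap, and the change was 0.47 (95% interval 0.06 to 0.89, limma adjusted p = 0.942). Sgk1, the aldosterone-induced kinase, had a change of 0.27 and Nedd4l, the ubiquitin ligase that removes the sodium channel, one of 0.29. Nr3c2, the mineralocorticoid receptor, was the gene of lowest p with a negative change, at 319, 280 and 303 on the wild-type and 261, 242 and 180 on the Vhl-deleted arrays. Its groups did not overlap either, and the change was -0.37 (95% interval -0.77 to 0.02, limma adjusted p = 0.944). Gata2, whose groups did not overlap, and St6gal1, whose groups did, followed at -0.20 and -0.22, with limma adjusted p of 0.944 each, and St6gal1 was at 0.08 without wild-type replicate 3. On wild-type replicate 3 these 6 genes stood between 73.8% (Nedd4l) and 190% (St6gal1) of the other wild-type arrays. Picking by lowest p favours genes that vary little within a group. Over all 41 tested the median was 52.2% (19.3% to 190%).

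Cells at the pole of the glomerulus include the macula densa, a plaque of thick limb cells. Of 6 genes listed for it, 4 were tested, and 0 rose or fell. The prostaglandin receptor gene Ptger3 was at 1052, 755 and 189 on the wild-type and 746, 622 and 1015 on the Vhl-deleted arrays, and the neuronal nitric oxide synthase gene Nos1 was at 161, 206 and 84.5 and at 169, 113 and 181. Both were lowest on wild-type replicate 3, but the other 2 tested, Avpr1a and Robo2, were lowest on wild-type replicate 2. Avpr1a stood at 119% and Robo2 at 111% of the other wild-type arrays on wild-type replicate 3, and at 74.7% and 31.9% of the other Vhl-deleted arrays on Vhl-deleted replicate 3. Leukocyte markers were listed as another cell type in the preparation. The change was positive in 5 of 6 tested, with a median of 0.57. With limma 0 of them passed (lowest adjusted p of 0.671), though 3 had an unadjusted p under 0.05. In 3 of the 6 all Vhl-deleted arrays lay above the wild-type ones, against 5.04% of all genes. The leukocyte list mean was lowest on wild-type replicate 3 (8.85) and highest on Vhl-deleted replicate 3 (9.94). Dropping either of these arrays left 5 of 6 changes positive. The leukocyte median then fell to 0.32 (wild-type array dropped) or 0.44 (Vhl-deleted array dropped), against -0.09 and 0.00 for the distal genes. Endothelial and mesangial lists had medians of 0.07 and 0.17, with 0 of 10 and 0 of 7 past the threshold. The part of these cells in the distal values was not tested.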

How the data were processed

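The authors deposited an intensity for each probe set, a linear MAS5 signal per array, and MAS5 is named without a version in the submitters' processing notes. The trimmed mean (2% off each end) was 500 on each array. No arrays held identical values. Symbols came from the array annotation, updated by Entrez number through a RefSeq gene table; 34945 probe sets had 1 symbol, 932 several, 9160 none and 64 were controls. Values were taken as log2(signal + 28), 28 being the 25th percentile of all values, which makes the changes of dim genes smaller. Probe sets in the upper 50% by mean log2 value were kept (mean linear signal was tried first and is given as an alternative), and the brightest stood for each gene. The comparison used lmFit and eBayes (with trend) of limma 3.58.1 under R 4.3.3, with p-values Benjamini-Hochberg adjusted over 11159 genes, threshold 0.05. All 31 genes were accounted for; given with every array's value were 10 defining genes, the 5 highest and 5 lowest changes and any whose groups did not overlap; from the wider list, the 3 of lowest p in each direction. The genes and lists were chosen with earlier results of these data known. The fit was tested on simulated data, where it called 21.2% of 1.5-fold and 56.8% of 2-fold changes, and 5.89% of all calls were false. The changed genes there were drawn from all genes tested, whose median SE (0.16) is below that of the distal genes (0.34). Changes of such size could therefore be missed in the distal genes. Noise in the simulation was drawn separately for each gene and array, without deviations shared over genes such as those of replicate 3. The share of false calls found there need not hold for these arrays. Samples are labelled biological replicates, 1 mouse each. Alternatives changed scaling, pseudocount, filter, probe set rule, variance model, array weights, the replicate block, a proximal tubule covariate and the threshold, or left out 1 array. Juxtaglomerular markers were not analysed here.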

Additional observations from a re-analysis of the deposited data

How the results depend on the processing

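None of the 30 tested genes rose or fell under any alternative run. Over all genes, 8 rose and 1 fell; 30 and 3 did with array weights, 32 and 4 with the proximal tubule covariate, 1 and 0 centred on proximal tubule markers, 15 and 3 at a threshold of 0.10, and 14 and 1 when low probe sets were filtered on linear signals, an alternative chosen after seeing the data. No gene fell with median scaling, with the mean of probe sets or without an intensity trend (0 each). With the replicate number as a replicate block 1 rose and 0 fell. Same-numbered arrays deviated with r of -0.02, -0.41 and -0.51 over genes. These values cannot decide whether equal numbers pair the mice, since replicate 3 of each group stood apart. With every replicate number present in both groups, the block cannot move a change, only its SE. The median of the 30 genes was 0.25 there by construction. Leaving out 1 array gave 1 to 12 that rose and 0 to 1 that fell; 0 of the distal genes passed.

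The direction of the medians depended on the arrays. Leaving out 1 array gave medians of -0.090 to 0.46 (all 30), -0.040 to 0.59 (thick limb), -0.11 to 0.44 (distal convoluted and connecting), -0.10 to 0.47 (principal), -0.14 to 0.30 (intercalated) and -0.089 to 0.41 (wider list). Centring on proximal markers lowered every gene's change by the same amount, and the median over all genes was then -0.58. In the same order the medians so centred were -0.33, -0.23, -0.34, -0.37, -0.52 and -0.36. With array weights, which gave wild-type replicate 3 a weight of 0.263, they were -0.14 (all 30), 0.0040 (thick limb), -0.18 (distal convoluted), -0.14 (principal), -0.14 (intercalated) and -0.087 (wider list). With the covariate they were, in that order, -0.073, 0.019, -0.10, -0.042, -0.10 and -0.0040. The cause was not tested.

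Since centring lowered every change by the same amount, a sign turned by it shows only a change smaller than that amount. Centred on proximal markers, single changes turned negative for Umod (-0.20), Slc12a1 (-0.014), Slc12a3 (-0.34), Pvalb (-0.32), Calb1 (-0.49), Aqp2 (-0.44), Aqp3 (-0.39), Hsd11b2 (-0.22), Atp6v1b1 (-0.21), Fxyd4 (-0.17), Avpr2 (-0.14), Fxyd2 (-0.11), Aqp4 (-0.54) and Tfap2b (-0.54). With array weights this held for Slc12a3 (-0.15), Pvalb (-0.22), Calb1 (-0.21), Aqp3 (-0.32), Hsd11b2 (-0.077), Fxyd4 (-0.0061), Aqp4 (-0.23) and Tfap2b (-0.53), and with the covariate for Slc12a3 (-0.059), Pvalb (-0.15), Calb1 (-0.15), Aqp3 (-0.18), Aqp4 (-0.22) and Tfap2b (-0.45). Median scaling turned Aqp4 (-0.013) and Tfap2b (-0.017), and quantile normalization Aqp4 (-0.010). Leaving out 1 array gave ranges across 0 for Umod (-0.037 to 0.59), Slc12a1 (-0.040 to 0.91), Slc12a3 (-0.059 to 0.43), Pvalb (-0.22 to 0.57), Calb1 (-0.17 to 0.35), Aqp2 (-0.028 to 0.23), Aqp3 (-0.20 to 0.48), Hsd11b2 (-0.040 to 0.57), Foxi1 (-0.56 to 0.18), Slc8a1 (-0.27 to 0.12), Aqp4 (-0.21 to 0.28) and Tfap2b (-0.50 to 0.51). Avpr2 (0.34 to 0.57), Bsnd (0.16 to 1.49), Atp6v1b1 (0.037 to 0.67), Fxyd4 (0.050 to 0.61), Fxyd2 (0.0095 to 0.71) and Scnn1b (-0.28 to -0.02) kept their sign there. Dim genes such as Bsnd, Avpr2, Aqp4 and Foxi1 lie close enough to the added 28 that it makes their changes smaller. The change of Bsnd was 1.67 with an added 1 and 0.55 with an added 100. It rests on the value near the floor on wild-type replicate 3, and was 0.16 without that array.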

Other observations

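The one gene of all tested that fell, the anion exchanger Slc26a7, is known from intercalated cells of the collecting duct among other places, and its arrays were ordered differently from the intercalated genes above. Its signals were 2977, 3632 and 3384 on the wild-type and 1605, 1254 and 1464 on the Vhl-deleted arrays, a change of -1.20 (limma adjusted p = 0.0450). The call was close to the threshold: no gene fell in 5 of the 6 fits that left out 1 array, and the limma adjusted p of Slc26a7 was 0.0659 when wild-type replicate 3 was left out and 0.181 when Vhl-deleted replicate 3 was. No gene fell either with median scaling, centring on proximal markers, the mean of probe sets, no intensity trend or the replicate block. Without replicate 3 of the wild-type or of the Vhl-deleted group the change of Slc26a7 was -1.18 and -1.21. Slc26a7 passed with the proximal tubule covariate (limma adjusted p = 0.0104, change -1.20) and with array weights (limma adjusted p = 0.0143, change -1.12). On wild-type replicate 3 it stood at 102% of the other wild-type arrays, where Foxi1, Atp6v1b1 and Atp6v0d2 stood at 34.7%, 43.5% and 68.1%. Which cells of the preparation gave the Slc26a7 signal was not tested.

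From the wider list, 3 genes chosen after their values were seen had wild-type replicate 3 at 19.3% (Kcnj16), 24.7% (Cdh16) and 21.9% (Emx2) of the other wild-type arrays. Kcnj16, a partner of the basolateral potassium channel encoded by Kcnj10, was at 3072, 3800 and 662 on the wild-type and 2451, 3337 and 3570 on the Vhl-deleted arrays. Cdh16, the kidney-specific cadherin of tubule epithelium, was at 7229, 7555 and 1826 and at 6317, 5409 and 10569. Emx2, a homeobox gene of the ureteric bud lineage, was at 204, 207 and 45.1 and at 186, 181 and 433. The groups overlapped in all 3 genes, and their changes of 0.62, 0.61 and 0.79 (limma adjusted p = 0.944 each) were -0.15, -0.05 and 0.23 without wild-type replicate 3.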
